A study of Mus musculus with 6 samples.

Results

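A group of 9 genes that control clotting at the vessel wall was followed through the cells of isolated brain microvessels: *Vwf*, *Plat*, *Thbd*, *Procr*, *F3*, *Tfpi*, *Plau*, *Plaur* and *Serpine2*. They were chosen by name, all 9 matched 1 row each, and they are 9 of the 32287 genes in the count matrices. Microvessels had been drawn with CD31 antibody beads from 1 cerebral hemisphere of untreated male mice aged 12 months, and cells were sequenced by droplet 3′ RNA-seq with 1 library per mouse. Samples of 3 WT mice (C57BL/6J) were compared with 3 ArcSwe mice (AppArcSwe, the TgApp ArcSwe line, labelled AD), which carry an amyloid precursor protein transgene with the Arctic and Swedish mutations and have both plaques and amyloid-β deposits along vessels. The promoter of the transgene was not given in the sources used here. The comparison asks whether vessels with such deposits differ in expression from WT vessels.

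Clotting starts when tissue factor (F3), normally kept away from blood, binds a clotting factor in plasma, and it ends in thrombin and fibrin. Vessel walls oppose it in several ways. TFPI blocks the tissue factor complex, thrombomodulin (Thbd) turns thrombin into an activator of protein C, and the endothelial protein C receptor (Procr) presents protein C to that complex. Von Willebrand factor (Vwf), stored in endothelial granules, captures platelets and carries a clotting factor. Fibrin is removed by plasmin, which tPA (Plat) and urokinase (Plau) release from plasminogen. Urokinase is held at the cell surface by its receptor uPAR (Plaur), and protease nexin-1 (Serpine2) inhibits thrombin and both activators. Tissue factor of the brain is known mainly from cells outside the vessel lumen.

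After a filter on cell quality 44112 of 49059 cells remained, with 2379 to 13389 cells and 14742911 to 49090788 unique molecular identifiers (UMIs, counted transcripts) per mouse. Both extremes were ArcSwe mice. Cells were clustered without the 9 genes and each cluster was named from marker genes, so every class name below stands for cells like that type. Barrier endothelial cells (24073 cells) were made up of 3430 arterial, 19271 capillary and 1372 venous cells, and beside them stood 841 fenestrated endothelial cells, 689 pericytes, 3399 smooth muscle cells, 7099 microglia, 710 B cells and 298 T and NK cells. Levels are CPM, that is UMIs of a gene scaled to a fixed total of UMIs summed over a class in 1 mouse. Since 3′ counts do not allow levels of different genes to be set against each other, each gene was compared only with itself. Any 2 libraries shared 4 to 42 cell barcodes. WT mouse 3 stood apart from the others, with the lowest summed level of immediate early genes (genes induced within minutes, also by tissue dissociation) in each of these classes. In barrier endothelium the sum was 12250 CPM in that mouse and 23480 to 30340 CPM in the other 5. In that same mouse most microglia carried little ribosomal protein message, as they also did in the ArcSwe mice. Those of WT mouse 3 lay mainly in 1 cluster, which held at most 5.38% of microglia in any other mouse, as described with the microglial values.

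The name given to the group held for 6 of the genes in barrier endothelium and not for the other 3. *F3* had 19 UMIs in all 24073 barrier endothelial cells, at 0 to 0.2953 CPM per mouse, and *Plau* stood at 0.1061 to 1.901 CPM there. *Serpine2* had 8.646 to 20.6 CPM. With cells thinned to 1000 UMIs and shallower cells left out, it had a UMI in 1.383% of barrier cells against 1.048% of B cells (means of 6 mice), with overlap. All 3 were higher in other classes. The plot of the levels by class shows these distributions.

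**Figure D1:**
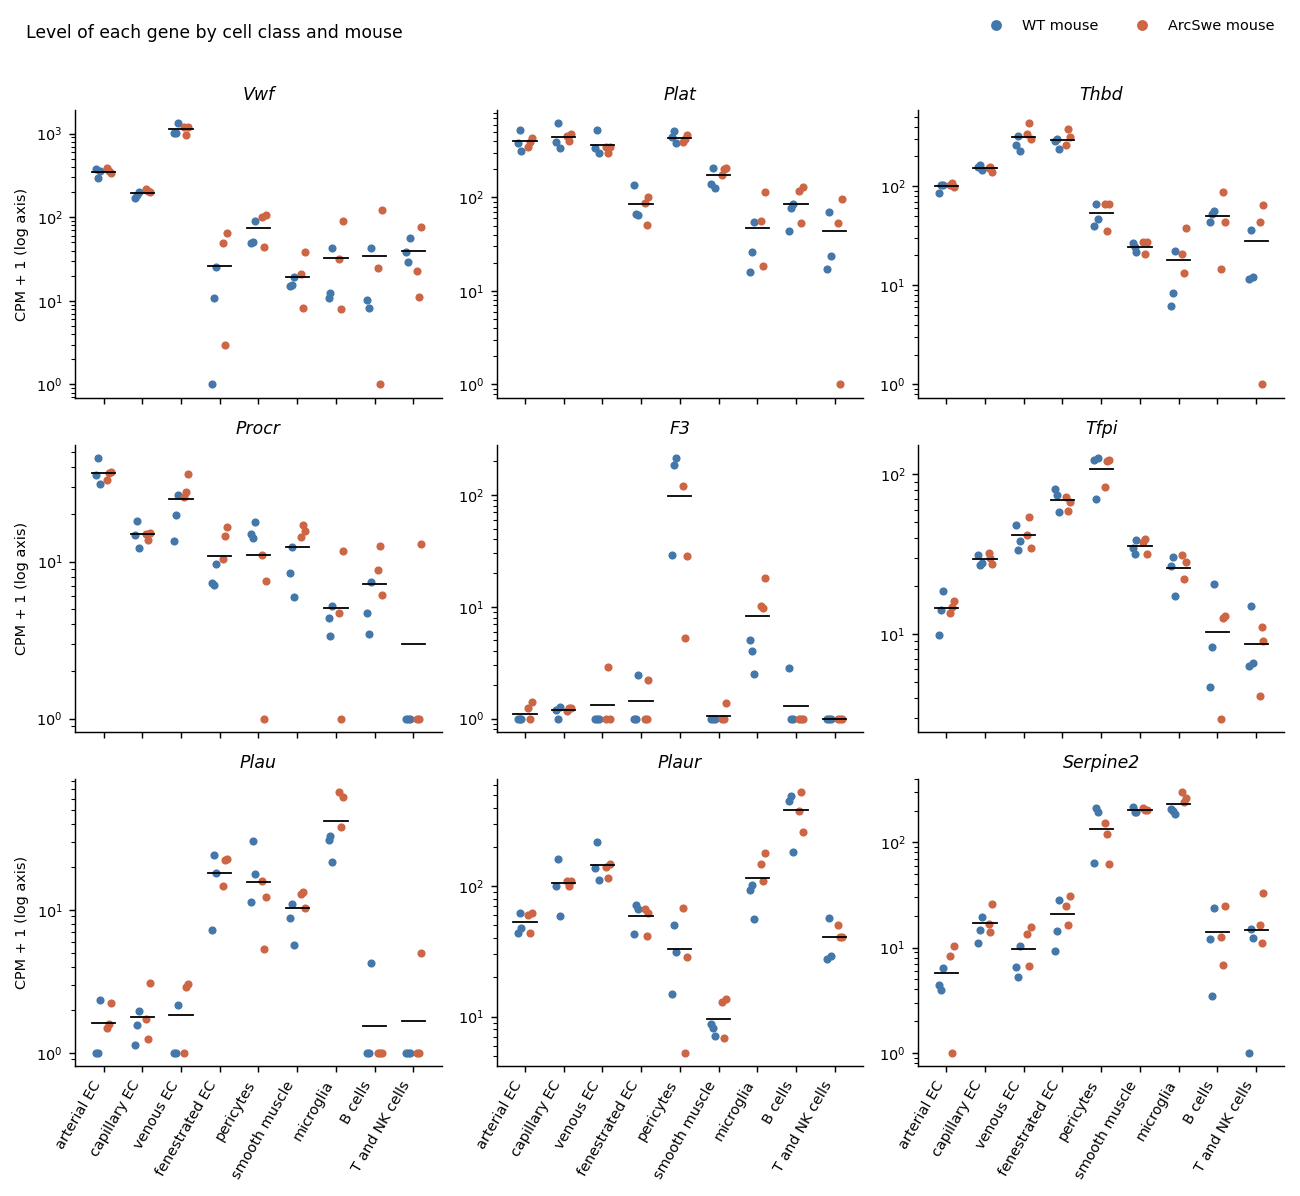
Level of each gene in 9 classes, as CPM + 1 on a log axis, with 1 point per mouse (blue WT, orange ArcSwe) and a bar at the mean of the 6 mice. *Vwf* was highest in venous cells at 967.1 to 1321 CPM, *Thbd* in venous and fenestrated cells, *Plaur* in B cells, and *F3* lay near 0 outside the pericyte class and microglia.

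*Vwf* (chromosome 6, 125546774 to 125686679, plus strand of GRCm38, as are all positions given here) followed the vascular tree. Venous levels were 1026, 1026 and 1321 CPM in WT mice and 1199, 967.1 and 1190 CPM in ArcSwe mice. Arterial cells followed at 350.2 ± 33.5 CPM and capillary cells at 195.8 ± 16.0 CPM (SD, n = 6 mice), and the ranges of the 3 zones did not overlap. In fenestrated cells, the endothelium of the choroid plexus and other sites without a barrier, *Vwf* was nearly missing in some mice, with 0, 9.822 and 24.4 CPM in WT and 48.61, 1.931 and 64 CPM in ArcSwe. Mural and immune cells had medians of 16.28 to 69.71 CPM, and their neighbours in that order overlapped.

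Shares of cells with a UMI gave the same order. With cells thinned to 1000 UMIs and shallower cells left out, 59.55% of venous, 25.91% of arterial and 15.39% of capillary cells had a *Vwf* UMI (means of 6 mice). The share was 1.261% in smooth muscle cells and 2.02% in B cells, which do not make von Willebrand factor, and shares near these are read as background. Without thinning, 91.7% of venous cells had one. Fenestrated cells had a mean of 1.985% and differed between mice, with 0, 1.117 and 1.104% in WT and 5.535, 0.2939 and 3.862% in ArcSwe. In ArcSwe mouse 1 the share was above that of its B cells (0.8529%), and in ArcSwe mouse 3 it was below (6.586%).

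*Thbd* (chromosome 2, 148404466 to 148408188, minus strand) was highest in venous and fenestrated endothelium. Venous cells had 258.9, 318.7 and 226.8 CPM in WT mice and 336.0, 428.3 and 298.9 CPM in ArcSwe mice. Fenestrated cells were level with them at 293.7 ± 49.1 CPM (SD, n = 6), and the ranges of these classes overlapped. Capillary cells had 150.7 ± 8.9 CPM and arterial cells 98.5 ± 7.3 CPM, each below the class before it in every mouse. Fenestrated endothelium thus overlapped veins in *Thbd* and lay below every venous value in *Vwf*.

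*Procr* (chromosome 2, 155751117 to 155755471, plus strand) was the only one of the 9 with its highest median in arterial cells, at 34.69, 45.02 and 30.09 CPM in WT mice and 32.17, 35.77 and 36.41 CPM in ArcSwe mice. Venous levels ran from 12.52 to 35.4 CPM and overlapped the arterial ones. Capillary cells had 11.3 to 17.21 CPM, below every arterial value. The receptor and thrombomodulin, which act in 1 reaction, were thus ordered differently along the tree.

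*Tfpi* (chromosome 2, 84432855 to 84476775, minus strand) was highest in pericytes, at 121.8, 68.74 and 126.1 CPM in WT mice and 82.19, 120.0 and 121.3 CPM in ArcSwe mice. Fenestrated cells came next at 67.6 ± 8.75 CPM (SD, n = 6) and did not overlap any barrier zone. Within the barrier, venous cells had 40.7 ± 8.1, capillary cells 28.3 ± 2.0 and arterial cells 13.5 ± 2.8 CPM. Arterial cells, highest in *Procr*, were the lowest vascular class for this inhibitor.

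*F3* (chromosome 3, 121723537 to 121735048, plus strand) had 261 UMIs in the pericyte class and 165 in microglia. The other fitted classes outside barrier endothelium held 2 UMIs each, in smooth muscle and fenestrated cells. Levels of the pericyte class differed widely between mice, with 27.83, 183.3 and 214.5 CPM in WT and 119.6, 4.284 and 27.68 CPM in ArcSwe. A finer clustering of the same cells split the pericyte class. Among 567 cells of the main pericyte cluster, 0 had an *F3* UMI, which allows a share of up to 0.529% (3 cells of the total, counting error only). All 261 UMIs lay in 31 of 117 cells of a small cluster led by *Dcn*, *Lum* and *Ccl19*. Of these, *Dcn* and *Lum* are fibroblast matrix genes, and the study lists *Ccl19* among markers of smooth muscle cells of pial veins. The small cluster kept 8 of 9 pericyte markers, none of them among its 10 leading genes. *F3* is therefore not placed in a named cell type here. In this small cluster *F3* stood at 116.1, 453.2 and 962.4 CPM in WT and 438.4, 8.846 and 263.0 CPM in ArcSwe, from 16 to 25 cells per mouse. It also carried more *Serpine2* (427 against 28.0 CPM, pooled over mice) and less *Tfpi* (60.4 against 126.4 CPM) than the main pericyte cluster. The *F3*, *Serpine2* and *Tfpi* levels of the pericyte class therefore mix both clusters.

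*Plat* (chromosome 8, 22757727 to 22782844, plus strand) was spread over several classes. Pericytes had 445.4, 517.2 and 378.2 CPM in WT mice and 388.5, 419.8 and 470.6 CPM in ArcSwe mice. Capillary (445.8 ± 98), arterial (397.3 ± 76.5) and venous cells (358.7 ± 88.1 CPM, SD, n = 6) overlapped them. The summed endothelial markers of the pericyte class ran from 2917 to 7675 CPM, against 15730 to 18380 CPM in barrier endothelium. The part of endothelial RNA in the pericyte values was not tested. Smooth muscle cells had 175 ± 35.9 CPM, below every barrier zone in every mouse, and fenestrated cells 84 ± 31.2 CPM. Much of the endothelial spread came from 2 WT mice, since capillary cells held 617.9 CPM in WT mouse 2 and 334.0 CPM in WT mouse 3, against 394.0 to 479.0 CPM in the other 4.

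*Plau* (chromosome 14, 20836660 to 20843385, plus strand) was highest in microglia at 20.55 to 66.03 CPM, followed by fenestrated cells (17.2 ± 6.4), pericytes (14.6 ± 8.5) and smooth muscle cells (9.36 ± 2.8 CPM, SD, n = 6). Barrier zones lay below each of these. Barrier endothelium thus held *Plat* with *Plau* near 0, while pericytes, smooth muscle and fenestrated cells held both, with the limit given for *Plat* in pericytes.

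*Plaur* (chromosome 7, 24462484 to 24475968, plus strand) was highest in B cells among the classes with enough cells in every mouse, with 446.5, 492.3 and 181.3 CPM in WT mice and 373.0, 528.4 and 261.4 CPM in ArcSwe mice. Monocytes and dendritic cells had enough cells in ArcSwe mouse 3 alone, with 499.6 CPM against the 261.4 CPM of its B cells. After thinning to 1000 UMIs, 27.74% of B cells had a *Plaur* UMI against 0.738% of smooth muscle cells. Venous cells had 143.8 ± 38, capillary cells 105.7 ± 32.5 and arterial cells 52.6 ± 9.3 CPM (SD, n = 6). Capillary levels were 99.1, 159.6 and 57.96 CPM in WT and 108.7, 99.43 and 109.3 CPM in ArcSwe. As with *Plat*, WT mouse 2 was the highest and WT mouse 3, the mouse with the lowest immediate early genes, the lowest, and the part of that difference between libraries was not tested.

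*Serpine2* (chromosome 1, 79794197 to 79861180, minus strand) was a gene of microglia, smooth muscle cells and part of the pericyte class. Smooth muscle levels were even, at 213.7, 191.0 and 194.7 CPM in WT and 208.5, 202.6 and 200.4 CPM in ArcSwe. Microglia had 183.4 to 300.5 CPM and pericytes 61.06 to 209.5 CPM. Endothelial classes had 0 to 30.19 CPM, below each of these.

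The sequences upstream of *F3* and *Plaur* are shown because tissue factor and the urokinase receptor are textbook targets of AP-1, the dimer of Fos and Jun proteins whose genes are in the immediate early list above. Each window holds the 250 bases before the annotated start in the RefSeq annotation of GRCm38.p6, plus strand, with the AP-1 letters in capitals. That of *F3* is chr3:121723287-121723536 and that of *Plaur* is chr7:24462233-24462482.
F3: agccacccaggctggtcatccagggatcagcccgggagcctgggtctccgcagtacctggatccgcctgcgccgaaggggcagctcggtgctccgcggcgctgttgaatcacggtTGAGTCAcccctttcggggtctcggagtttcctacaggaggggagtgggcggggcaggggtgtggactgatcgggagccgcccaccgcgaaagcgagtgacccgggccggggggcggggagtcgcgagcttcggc
Plaur: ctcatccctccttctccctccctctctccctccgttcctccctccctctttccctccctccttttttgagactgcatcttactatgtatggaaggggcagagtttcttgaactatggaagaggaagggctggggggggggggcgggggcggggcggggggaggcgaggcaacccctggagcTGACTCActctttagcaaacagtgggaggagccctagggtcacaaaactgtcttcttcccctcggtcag
The letters TGACTCA, searched on both strands (TGAGTCA), began 135 bases before the start in *F3* and 69 bases before it in *Plaur*. They also occurred in the window of *Procr* and not in those of *Tfpi* and *Serpine2*, and 4.46% of 32851 windows of this length held them. The GC box GGGCGG, present 3 times in *F3* and 2 times in *Plaur* when matches may not overlap, occurred in 32.7% of windows. Windows were at hand for 5 of the 9 genes, and a match of letters is a description, not a binding site.

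The zones of the barrier endothelium were compared within each mouse, as the difference of log2(CPM + 1) from capillary cells, with an exact two-sided sign-flip test over the 6 mice, whose smallest p is 0.03125. Zones had been clustered from other genes of the same cells, so the p is not independent of that step. Of the 9 genes, 7 reached 10 CPM in a zone. In arterial cells, *Vwf* was 1.78-fold and *Procr* 2.46-fold the capillary level, while *Plat*, *Thbd* (0.655-fold), *Tfpi* (0.487-fold), *Plaur* (0.517-fold) and *Serpine2* (0.282-fold) were lower, each the same way in 6 of 6 mice (exact p = 0.03125, adjusted over all genes 0.0675). *Serpine2* reached 10 CPM in capillary cells alone, so its lower value follows from how it entered, and 6 genes remain. Of all 8888 genes tested 46.3% reached that p, a high background for the count of 6 of 6. On the log2 scale the median absolute difference of all genes was 0.171, against 0.834 for *Vwf* and 1.297 for *Procr*, and *Plat* alone of the 7 lay below that median, at -0.159.

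In venous cells, *Vwf* was 5.69-fold the capillary level (log2 difference 2.508 ± 0.165, SD, n = 6) and *Thbd* 2.02-fold (1.014 ± 0.298). *Tfpi* (1.4-fold) and *Plaur* (1.38-fold) were also higher and *Plat* (0.803-fold) and, with the same limit, *Serpine2* (0.544-fold) lower, all in 6 of 6 mice (exact p = 0.03125, adjusted over all genes 0.0849). *Procr* was higher in 5 of 6 mice (1.61-fold, exact p = 0.09375, adjusted 0.18). Here 36.8% of 8789 genes reached the smallest p, with a median absolute difference of 0.198. No gene could pass an adjusted p of 0.05 in either comparison with 6 mice. The profile of the veins was thus high *Vwf*, *Thbd*, *Tfpi* and *Plaur*, and that of the arteries high *Vwf* and *Procr* with low *Thbd*, *Tfpi* and *Plaur*. *Plat* lay slightly below capillaries in both classes as a whole, at 0.895-fold in arteries and 0.803-fold in veins. The arteriolar part of the arterial class was not lower, with a mean of 494.9 CPM against 445.8 CPM in capillaries.

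**Figure D2:**
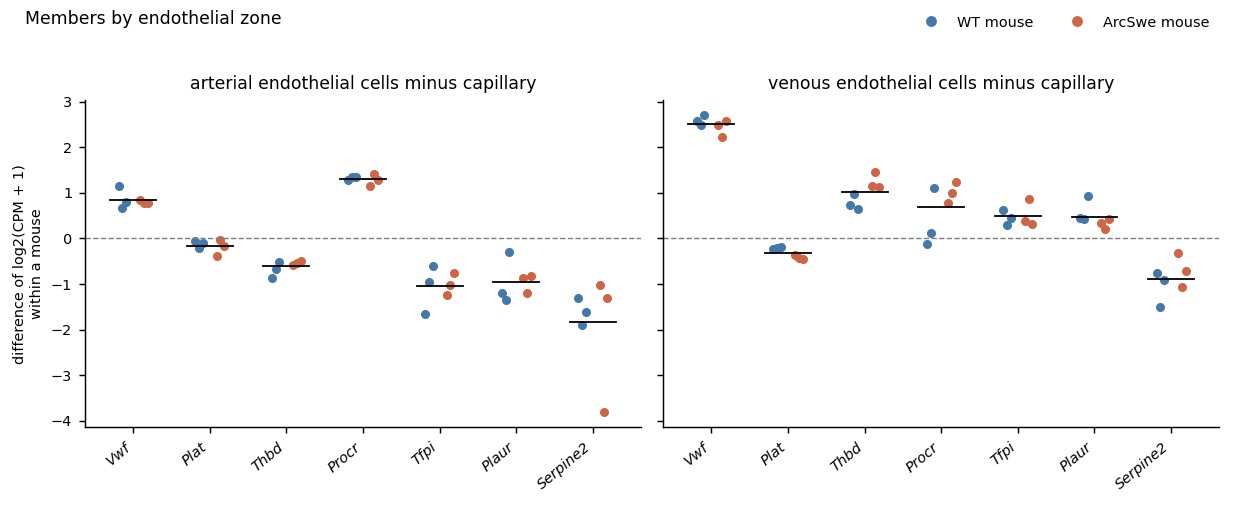
Difference of log2(CPM + 1) between arterial or venous and capillary endothelial cells of the same mouse for 7 genes, with 1 point per mouse (blue WT, orange ArcSwe) and a bar at the mean. All 6 mice lay on 1 side of 0 for each gene and zone except *Procr* in veins, where 5 of 6 lay above 0.

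Arterial cells held 2 clusters that differed in the same genes. The cluster of large arteries (1373 cells, marked by *Mgp*, *Eln* and *Fbln5*) had 485.5 ± 60.8 CPM of *Vwf* and 259.1 ± 34.7 CPM of *Plat*, and the arteriolar cluster (2057 cells) had 246.2 ± 10.1 and 494.9 ± 96.1 CPM (SD, n = 6). Neither gene overlapped between the clusters, and the 2 genes ran in opposite directions. Capillary *Plat* (334.0 to 617.9 CPM) lay above every value of the large-artery cluster (209.6 to 306.3 CPM). It overlapped the arteriolar values (376.4 to 655.0 CPM). *Thbd* (108.5 against 91.6 CPM) and *Plaur* (47.8 against 56.7 CPM) were closer.

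Capillary cells fell into 7 clusters, each called here by its leading gene. *Vwf* was highest in the cluster led by *Cyp2e1*, at 419.2 to 474.1 CPM, and lowest in that led by *Ccn3*, at 56.9 to 86.5 CPM. The *Ccn3*-led cluster, also led by *Apold1*, was the highest in *Thbd*, at 208.4 to 232.8 CPM against medians of 111.5 to 151.8 CPM in the other 6, and in *Plaur*, at 97.6 to 234.8 CPM against medians of 38.95 and 43.2 CPM in the *Cyp2e1*- and *Ndnf*-led clusters. *Vwf* and *Thbd*, both high in veins, were therefore opposed within capillaries. Genotypes overlapped in each of the 7 clusters for *Vwf* and *Plaur*, and for *Thbd* in all but the *Ndnf*-led one (113.4 to 121.3 CPM in WT, 112.6 to 113.2 CPM in ArcSwe). Another cluster (led by 1700026D11Rik) came mostly from 1 library. These are descriptions of clusters drawn from the same cells and carry no test.

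**Figure D3:**
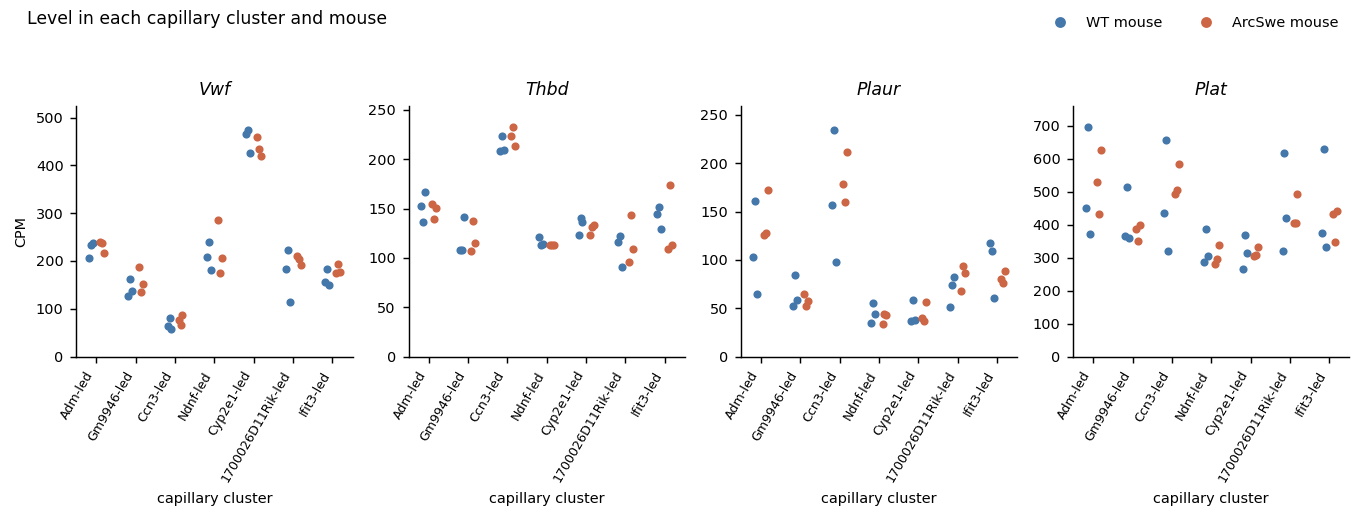
CPM of *Vwf*, *Thbd*, *Plaur* and *Plat* in 7 capillary clusters, named by their leading gene, with 1 point per mouse (blue WT, orange ArcSwe) and axes from 0. The *Ccn3*-led cluster was lowest in *Vwf* and highest in *Thbd*, and the *Cyp2e1*-led cluster was highest in *Vwf*.

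Companion genes were read from 9 lists with 65 genes. Beside genes of the pathway, the lists hold 12 immediate early genes and 5 regulators of thrombomodulin and tissue factor. Of 36 listed genes that reached 10 CPM, 17 were higher and 6 lower in arterial than in capillary cells with the smallest exact p, and 14 were higher and 5 lower in venous cells, to be read against the 46.3 and 36.8% of all genes above. Of the 36, 11 were counted as immediate early genes, with 5 higher and 1 lower in arteries and 5 higher and 0 lower in veins. In arteries *Entpd1*, which breaks down the platelet agonist ADP, stood at 362 against 143 CPM, *Ptgis*, the prostacyclin synthase, at 72.1 against 5.06 CPM and *Nos3*, the endothelial nitric oxide synthase, at 346 against 272 CPM. *S100a10*, part of a plasminogen receptor on the cell surface, stood at 249 against 132 CPM. In veins *Pros1*, the cofactor of activated protein C, stood at 139 against 108 CPM. *Lrp8*, a receptor for reelin and apolipoprotein E, was lower in arterial (74.0) and venous cells (53.6) than in capillary cells (176 CPM). The next 4 genes, below the 50 CPM set for naming, were picked after their values were seen. *F5*, a clotting cofactor, was lower in arteries (0.782 against 14.8 CPM in capillaries), *F2rl1*, a protease receptor, was higher in arteries (20.2 against 0.0954 CPM), and *Selp*, stored in the same granules as von Willebrand factor (32.6 against 0.18 CPM), and *Rab27a*, a regulator of those granules (35.6 against 6.88 CPM), were higher in veins. These 4 genes, and *Ptgis* in arteries, reached 10 CPM in 1 zone of the pair alone. As with *Serpine2*, their direction follows from how they entered, and the counts above hold other genes of this kind. Outside endothelium *Serpini1*, an inhibitor of tPA, was highest in pericytes (median 234.5 CPM) and *Pros1* in microglia (234.1 CPM).

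The genes with a pattern most like each of the 9, by Pearson r of log2(CPM + 1) over 56 sums of 11 classes in 6 mice and among 9698 genes, are given as a description, since sums of 1 class and of 1 library are not independent. They were *Frmd5* (0.86) for *Vwf*, *Cpne8* (0.92) for *Thbd*, *Palm* (0.837) for *Procr* and *Ak3* (0.922) for *Plat*. For the genes of the outer wall and microglia they were *Mdk* (0.835) for *F3*, *Dlc1* (0.862) for *Tfpi*, *Itgb5* (0.848) for *Plau* and *Cacnb2* (0.888) for *Serpine2*, and for *Plaur* it was *Apobec3* (0.862).

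Genotype was tested on the summed UMIs with edgeR's quasi-likelihood test and Benjamini-Hochberg adjustment over all genes of a class. In 8 classes 61 of 72 tests of the 9 genes could be made. No adjusted p fell below 0.05, while 9 of the tests reached that value before adjustment. DESeq2 gave 1 adjusted call, *F3* in microglia (adjusted p = 0.0457), where it called 0.929% of genes, and 7 unadjusted ones. Both unadjusted counts stand without a background, since no share of all genes at that p alone is given. Whether they exceed such a share is therefore left undecided. Outside microglia the lowest adjusted p of 52 edgeR tests was 0.969. Few genes of any kind passed in edgeR, with 0.00934% of genes called in arterial cells, 0.0347% in microglia and 0% in barrier endothelial cells as a whole, capillary, venous, fenestrated and smooth muscle cells and pericytes, so the absence of calls among 9 genes does not set them apart.

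**Figure D4:**
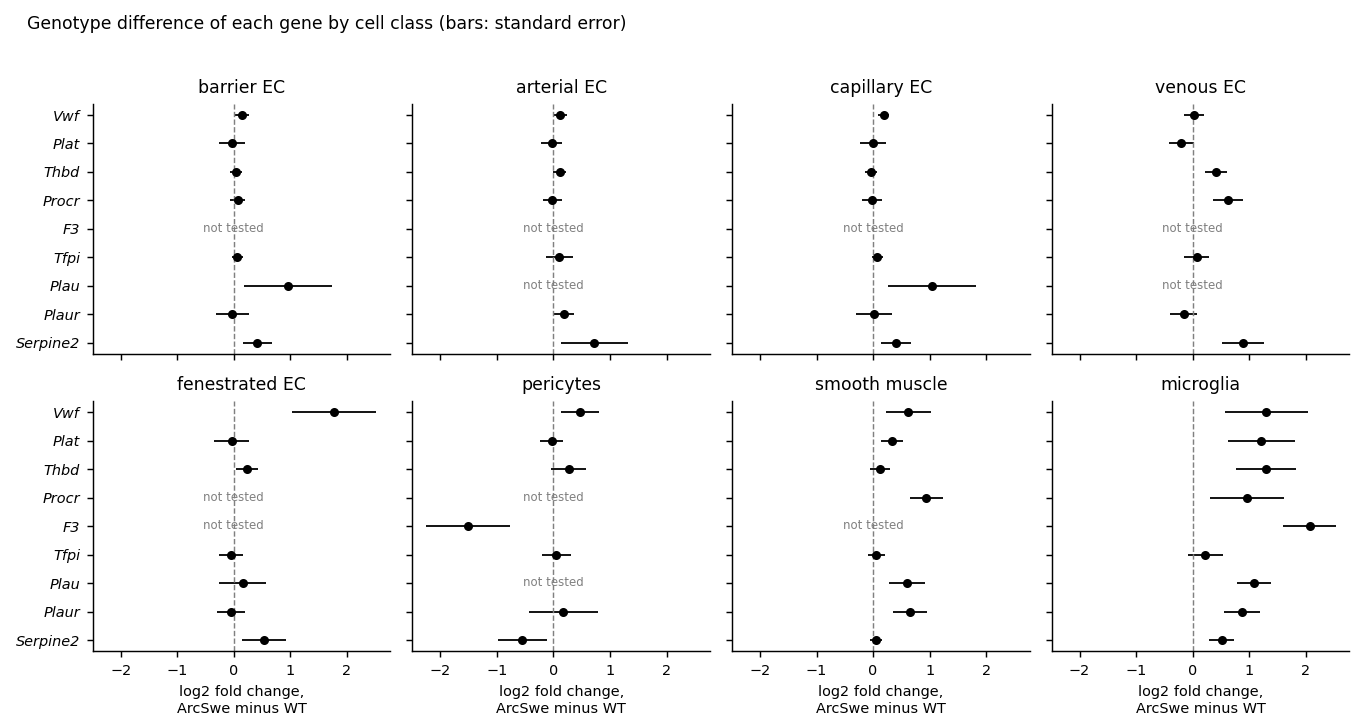
Log2 difference ArcSwe minus WT with its SE for each gene in 8 classes (edgeR, 3 mice per genotype), with genes of too few UMIs marked as not tested. Differences in barrier endothelium as a whole lay between -0.032 and 0.961, and in microglia all 9 lay above 0, between 0.223 and 2.066.

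In barrier endothelium as a whole the widest difference was that of *Plau* (0.96, SE 0.78), at the low level given above, followed by *Serpine2* (0.41, SE 0.26). *Vwf* in capillary cells was 170.3, 183.5 and 201.0 CPM in WT and 213.6, 207.0 and 199.0 CPM in ArcSwe (log2 difference 0.19, SE 0.09, adjusted p = 0.969, edgeR). Its venous difference was 0.02 with an SE of 0.17, and its sign turned with the cells included. Over the 8 genes tested in barrier endothelium the median difference was 0.07 on the log2 scale, beside -0.002 for all genes. *Tfpi* differed by -0.05 to 0.22 in every class fitted.

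Outside microglia 4 tests had an unadjusted p under 0.05, a count again without a background. They were those of *Procr* and *Serpine2* in veins, *Procr* in smooth muscle cells and *Vwf* in fenestrated cells, and venous *Thbd* lay just above that p. Venous *Thbd*, given per mouse above, was 268.2 ± 46.6 CPM in WT and 354.4 ± 66.7 CPM in ArcSwe (SD, n = 3 each), a log2 difference of 0.42 (SE 0.20, adjusted p = 1.0, edgeR), with 1 WT mouse above 1 ArcSwe mouse. WT mouse 3 was the lowest, and without it the difference was 0.27, and without ArcSwe mouse 2 it was 0.26. After thinning to 1000 UMIs, 21.8 ± 2.59% of WT and 25.71 ± 3.89% of ArcSwe venous cells had a *Thbd* UMI (exact permutation p = 0.3, where 3 against 3 mice cannot go below 0.1). The venous difference exceeded the capillary one by 0.44 (SE 0.11, adjusted p = 0.112, edgeR with the mouse as a block), beside 0.1% of 11958 genes with an adjusted p under 0.05 in that test. This adjusted p ranged from 0.0324 without WT mouse 2 to 0.422 without ArcSwe mouse 2. Venous *Procr* was 12.52, 18.87 and 25.66 CPM in WT and 24.78, 26.65 and 35.4 CPM in ArcSwe (log2 difference 0.63, SE 0.27, adjusted p = 1.0, edgeR), a difference of 0.40 without WT mouse 1. Venous *Serpine2* was 5.476, 4.193 and 9.33 CPM in WT and 12.39, 5.711 and 14.66 CPM in ArcSwe (0.89, SE 0.38, adjusted p = 1.0, edgeR), while the summed microglial markers of the same cells, at 0 for *Cx3cr1* and *Aif1* by removal, were 115.8, 145.7 and 348.1 CPM in WT and 232.4, 169.4 and 331.7 CPM in ArcSwe. The summed pericyte markers of these cells, with 9 of 9 detected, were 10.95, 25.16 and 29.16 CPM in WT and 32.7, 32.36 and 57.65 CPM in ArcSwe, higher in each ArcSwe mouse than in each WT mouse. The part of microglial or pericyte RNA in these values was not tested. *Thbd* and *Procr*, the receptors of the protein C reaction, were therefore both higher on average in ArcSwe veins, but neither passed the adjusted test and both overlapped between genotypes. None of 7 venous genes tested had an unadjusted p under 0.05 together with every ArcSwe mouse above every WT mouse, against 1.25% of all genes.

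In smooth muscle cells *Procr* was 7.487, 11.33 and 4.985 CPM in WT and 13.41, 16.23 and 14.65 CPM in ArcSwe (log2 difference 0.94, SE 0.30, adjusted p = 1.0, edgeR). WT mouse 3 was again the lowest, and without it the difference was 0.64. The ranges did not overlap, which with an unadjusted p under 0.05 was true of 1.42% of all genes in the class and of 1 of the 8 tested here. All 8 were higher on average, with a median of 0.46 beside 0.001 for all genes. The summed endothelial markers in these cells ran from 433 to 1750 CPM over the 6 mice, and the part of endothelial RNA in the *Procr* values was not tested. *Procr* had too few UMIs to be tested in pericytes (29) and fenestrated cells (45). From these few UMIs its pericyte mean was lower in ArcSwe (5.492 CPM) than in WT (14.65 CPM). Its fenestrated mean was higher in ArcSwe (12.87 CPM) than in WT (7.004 CPM). The genotypes did not overlap in either class.

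In the pericyte class *F3* was lower on average in ArcSwe by a log2 difference of -1.52 (SE 0.74, adjusted p = 0.999, edgeR), with overlap. Leaving out single mice moved it from -2.73 to -1.02. All its UMIs came from the small *Dcn*-led cluster described above, of at most 25 cells in a mouse. Fenestrated *Vwf* was higher in ArcSwe by 1.77 (SE 0.75, adjusted p = 1.0, edgeR), again with overlap and from the uneven shares given above, and by 2.735 without WT mouse 3. Without a filter on low counts edgeR called both, *F3* in the pericyte class where 0.511% of genes were called and *Vwf* in fenestrated cells where 0.46% were.

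In microglia all 9 genes were higher on average in ArcSwe, as all 8 tested were in smooth muscle cells, with a median log2 difference of 1.09 beside -0.02 for all 11518 genes. *F3* was 4.081, 3.032 and 1.522 CPM in WT and 9.107, 8.768 and 17.24 CPM in ArcSwe (log2 difference 2.07, SE 0.47, adjusted p = 0.254, edgeR). *Plau* was 29.63, 31.62 and 20.55 CPM in WT and 66.03, 36.83 and 60.44 CPM in ArcSwe (1.09, SE 0.31, adjusted p = 0.376, edgeR). Each of the 3 ArcSwe mice lay above each WT mouse in both, but ArcSwe mouse 2 lay close to the WT mice in *Plau*. *Plaur* was 93.33, 100.5 and 55.55 CPM in WT and 147.7, 108.7 and 178.7 CPM in ArcSwe (0.86, SE 0.32, adjusted p = 0.589, edgeR). *Serpine2* was 206.5, 198.6 and 183.4 CPM in WT and 300.5, 238.5 and 260.0 CPM in ArcSwe (0.51, SE 0.22, adjusted p = 0.626, edgeR). So these 4 genes, an activator, its receptor, an inhibitor and tissue factor, had an unadjusted p under 0.05 with no overlap between genotypes, 4 of 9 against 2.94% of all genes. In simulated counts of this class the test recovered 1 of 200 changes of 1 on the log2 scale, and 135 of 200 changes of 2.

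Without WT mouse 3, whose microglia stood apart, the differences were 1.81 for *F3* (adjusted p = 0.0693, edgeR), 0.89 for *Plau* (0.0891), 0.60 for *Plaur* (0.168) and 0.39 for *Serpine2* (0.253). With the replicate number as a block, 64 genes were called in microglia in place of 4, and still none of the 9. The genotype effect in microglia was not shown to differ from that in barrier endothelium, where 0% of 13633 genes passed and the lowest adjusted p of these genes was 0.697 (*Plaur*, log2 difference of effects 0.77). After thinning to 1000 UMIs, 0.218 ± 0.085% of WT and 0.778 ± 0.404% of ArcSwe microglia had an *F3* UMI, against 0.0153% of barrier endothelial cells, and 2.39 ± 0.46% and 3.86 ± 0.78% had a *Plau* UMI (SD, n = 3, exact permutation p = 0.1 for both, the smallest possible). The mean share with a *Serpine2* UMI was 18.3% and 18.5% (p = 1.0, exact permutation). Median depth was 2148 UMIs in WT and 1300 in ArcSwe microglia, and 3958.5 and 3513 in barrier endothelium. Thinning left out 471 WT and 1074 ArcSwe microglia below 1000 UMIs. The microglial shares are therefore those of the deeper cells (2965 WT, 2589 ArcSwe), with unequal loss between genotypes.

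The other 5 genes of microglia have to be read beside the endothelial markers in the same cells. *Vwf*, *Plat* and *Thbd* had shares of 1.996%, 2.65% and 1.157% at 1000 UMIs, no higher than in B cells (2.02%, 3.80% and 2.606%), and are read as background, and *Procr* had 0.3163% against 0.2826%. The summed endothelial markers were 710.5, 673.1 and 2738 CPM in WT and 2088, 778.6 and 4770 CPM in ArcSwe, with all 6 markers detected. *Vwf* was 9.759, 11.26 and 41.85 CPM in WT and 30.74, 7.014 and 88.38 CPM in ArcSwe, with WT mouse 3 and ArcSwe mouse 3 the highest of their genotype in both. The part of endothelial RNA in these values was not tested. *Thbd* (log2 difference 1.30, adjusted p = 0.601, edgeR) overlapped between genotypes. *Tfpi* stood apart from these 4, with a share of 2.421% in microglia against 0.5812% in B cells. Its levels were 25.55, 29.24 and 16.36 CPM in WT and 30.17, 21.04 and 27.35 CPM in ArcSwe and did not follow the endothelial sums.

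*F3*, *Plau*, *Plaur* and *Serpine2* followed a different division, that between microglial clusters. A cluster of 580 cells led by *Cst7*, *Gpr84* and *Spp1*, genes known from microglia at plaques, made up 0.48, 0.22 and 1.2% of microglia in WT mice and 11.71, 2.69 and 17.94% in ArcSwe mice. It held 108 of the 165 *F3* UMIs (65.45%), in 71 cells, and 45.3% of *Plau*, 34.17% of *Plaur* and 30.53% of *Serpine2* UMIs. Pooled over mice, *F3* stood at 35.4 CPM there and at 3.64 CPM in the cluster led by *Crybb1*, *Cx3cr1* and *P2ry12*, genes of resting microglia. The same pair of values was 137.3 and 31.7 CPM for *Plau*, 293.3 and 89.8 CPM for *Plaur*, and 506.9 and 209.2 CPM for *Serpine2*. The *Cst7*-led cluster held 555 ArcSwe and 25 WT cells and the *Crybb1*-led one 219 and 1388, so cluster and genotype cannot be told apart in the pooled values. Within ArcSwe mouse 1 (128 and 174 cells of these clusters) the pair was 24.58 and 3.77 CPM for *F3*, 169.1 and 32.99 CPM for *Plau*, 282.2 and 74.45 CPM for *Plaur* and 595.9 and 229.0 CPM for *Serpine2*. In ArcSwe mouse 3 (421 and 36 cells) the *Cst7*-led cluster was also the higher for each of the 4. Without this cluster the log2 difference between genotypes was 0.09 for *Plau* (adjusted p = 0.932, edgeR), 0.24 for *Plaur* (0.768) and -0.30 for *Serpine2* (0.634), and *F3* had too few UMIs for the test. For *Vwf* it was 1.53 and for *Thbd* 1.44, as large as with the cluster.

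**Figure D5:**
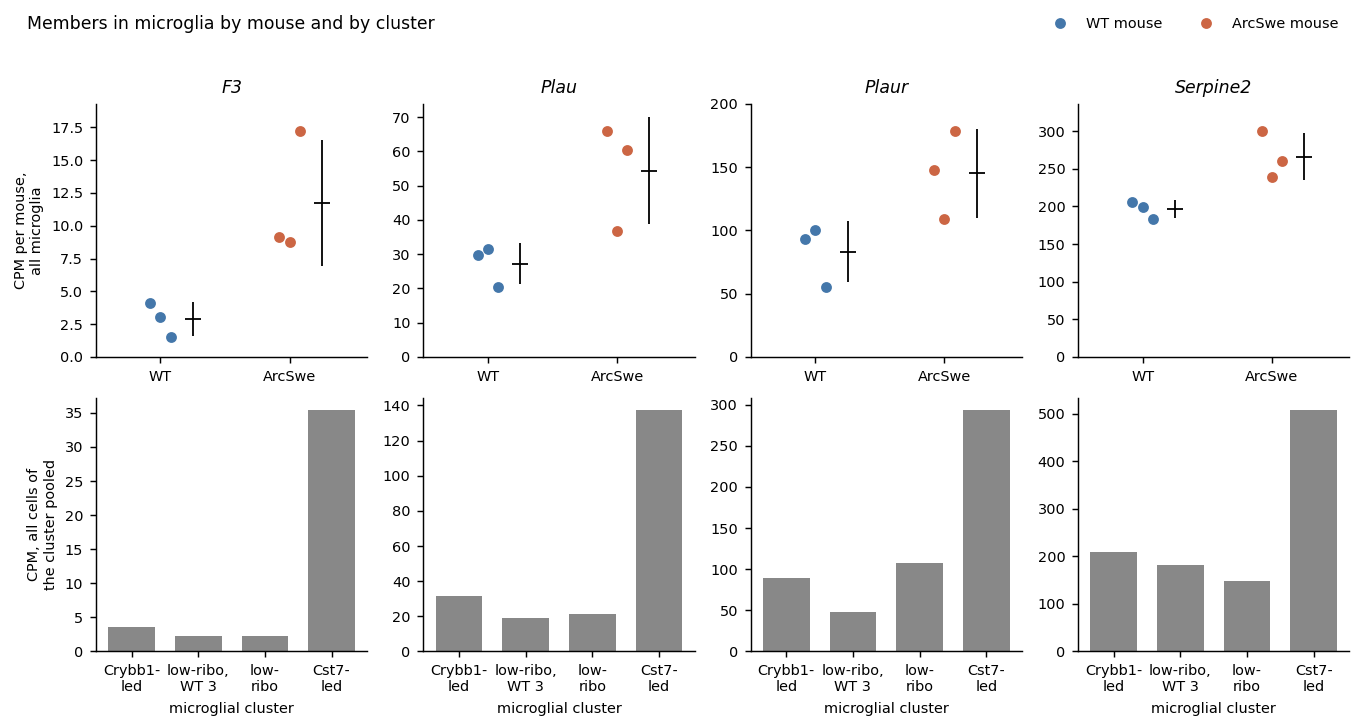
Top, CPM of *F3*, *Plau*, *Plaur* and *Serpine2* in all microglia of each mouse, with the mean and SD of each genotype. Bottom, CPM in 4 microglial clusters with the cells of all mice pooled, where "low-ribo" marks the 2 clusters with low ribosomal protein message and the *Cst7*-led cluster was the highest for each gene.

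The remaining microglia lay in 2 clusters with a low share of ribosomal protein UMIs, with medians of 2.04 and 1.88% against 4.74% in the *Crybb1*-led cluster. One of them held 88.76% of the microglia of WT mouse 3 and at most 5.38% in any other mouse, and the other held 69.99, 87.89 and 76.86% in ArcSwe mice and 26.42, 34.22 and 6.29% in WT mice. The study left out 1 microglial cluster, described as low in ribosomal and high in mitochondrial genes. Whether the 2 clusters here are of that kind was not tested. Without both clusters ArcSwe mouse 2 had 15 microglia and dropped out of the fit, and with 3 WT and 2 ArcSwe mice 165 genes were called. *Plau* was then higher in ArcSwe by a log2 difference of 1.95 (adjusted p = 0.0109, edgeR), *Serpine2* by 1.24 (0.0281) and *Plaur* by 1.59 (0.0486), and *F3* by 3.05 (0.0518). Under this filter 3 of the 9 genes passed, beside 1.59% of 10354 genes. The balance of *Cst7*- and *Crybb1*-led cells changes with it, and how much of each difference is that balance was not tested. Within the *Crybb1*-led cluster *Plau* was 28.75 and 34.55 CPM in WT mice 1 and 2 and 32.99 CPM in ArcSwe mouse 1.

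Among the 65 companion genes, which include the immediate early genes and regulators, none that could be tested was called between genotypes (edgeR, adjusted over all genes). Few genes of any kind were called, as given above. Many of the 65 had too few UMIs for a test. Of 13 procoagulant factors, 0 were tested in pericytes and smooth muscle cells and 1 in microglia. *Entpd1* in fenestrated cells was lower in each ArcSwe mouse (240.0, 229.6 and 225.3 against 170.6, 150.6 and 163.0 CPM, log2 difference -0.48, adjusted p = 1.0), and *Klf4*, a transcription factor that induces thrombomodulin, was higher in pericytes (758.5, 657.9 and 429.0 against 1233, 1032 and 1148 CPM, 0.93, adjusted p = 0.999). The immediate early genes, 12 listed, were higher on average in ArcSwe in all 12 cases in barrier endothelium (median 0.23), none of them with an unadjusted p under 0.05, and their sum was lowest in WT mouse 3 as given above.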

How the data were processed

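UMI count matrices (raw counts per gene and barcode) were deposited by the authors, 1 per mouse, made with Cell Ranger 7.0.0 against mm10 with *Clec7a* and human *NOTCH3* added. Cells with 500 to 4500 genes and under 10% mitochondrial UMIs were kept, as in the study. The 9 genes and their companion lists other than the immediate early genes, 63 genes in all, were kept out of clustering (2000 variable genes, 30 components, 20 neighbours, Leiden resolution 1). Classes were named from markers, 1439 cells with markers of several types or led by genes of other myeloid cells stayed unnamed, and no doublet caller was run. Endothelial cells with a *Cx3cr1* or *Aif1* UMI were removed (1867 of 13187 WT, 3474 of 16227 ArcSwe). Free RNA was not subtracted.

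Counts were summed per mouse and class (at least 20 cells), ribosomal, mitochondrial, pseudogene and Rik genes (2916) were removed, and genotype was tested with edgeR 4.0.16 (R 4.3.3, TMM, filterByExpr, quasi-likelihood, 3 against 3 mice). DESeq2 1.42.0, no filter, other clustering and cell filters, and leaving out each mouse were alternatives. Each class was fitted apart. Perivascular macrophages (46 cells) and monocytes and dendritic cells (87) were not fitted. Thinned shares are the expected share with a UMI in 1000 drawn UMIs, among cells with at least that many. Intervals and floors cover counting error only. The tests were run on simulated counts with known changes first. Of 200 changes of 1 on the log2 scale, edgeR recovered 1 in microglia, 34 in pericytes and 74 in fenestrated cells. In the other fitted classes it recovered 117 to 147, so missing calls say little about changes of this size, least in microglia. Software was Python 3.11.15, numpy 2.4.6, scipy 1.17.1, scikit-learn 1.9.0 and leidenalg 0.10.2.

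Zone p-values were to be adjusted over the 9 genes, and are given adjusted over all genes instead. Same-numbered mice correlated above 0.1 in all 3 pairs in microglia (0.208, 0.169, 0.371) and smooth muscle cells (0.114, 0.143, 0.325) but not in the other classes, and the labels tie the numbers to no batch. All 9 genes are described. A companion gene was named at 50 CPM or more in its highest class or with an unadjusted p under 0.05 and no overlap, unless stated. The genes and lists were chosen with earlier results of these data known.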

Additional observations from a re-analysis of the deposited data

How the results depend on the processing

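With 3 mice per genotype the counts of all genes called depended on the method, and the calls of the 9 genes moved in few cases. DESeq2 called 13 genes in barrier endothelial, 11 in arterial, 13 in capillary, 1 in venous, 2 in fenestrated cells and 107 in microglia. Without a filter on low counts edgeR called 95 genes in arterial, 45 in venous and 76 in fenestrated cells, 85 in pericytes, 45 in smooth muscle cells and 104 in microglia. With the replicate block it called 7 in arterial cells, 1 each in venous and fenestrated cells and 64 in microglia, and changed no call of the 9 genes. Microglia gave 165 calls without the low-ribosomal clusters, 1 without the *Cst7*-led cluster. Leaving out single mice gave 1 to 2 calls in arterial, 0 to 1 in fenestrated cells and in pericytes, and 0 to 45 in microglia (45 without WT mouse 3, 0 without ArcSwe mouse 1 or 3).

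Of the 9 genes, 1 was called in fenestrated cells (*Vwf*) and 1 in pericytes (*F3*) without a filter, 1 in microglia (*F3*) by DESeq2 and 3 in microglia without the low-ribosomal clusters. *Serpine2* in microglia turned to -0.295 without the *Cst7*-led cluster. *Vwf* in veins, near 0 throughout, was -0.003 at Leiden resolution 2, -0.002 with endothelial cells of microglial UMIs kept and -0.043 to 0.126 without single mice, and *Thbd* in barrier endothelium was -0.034 to 0.115. The difference of genotype effects gave 19 calls between venous and capillary cells under a stricter cell filter (12 to 33 without single mice), 0 between arterial and capillary cells with microglial-UMI cells kept (0 to 8) and 5 between microglia and barrier endothelium without the low-ribosomal clusters. The difference in the share of microglia with a UMI (ArcSwe minus WT, percentage points) became 3.363 for *Plau*, 1.496 for *F3* and 6.792 for *Plaur* at 2000 UMIs, and -1.088, 0.982 and -2.796 without thinning, where WT microglia were deeper. At 2000 UMIs, 1641 WT and 2574 ArcSwe microglia were left out as too shallow. Of the zone comparisons under alternatives, 139 stayed on their side of the threshold and *Procr* in veins passed it with microglial-UMI cells kept. The stricter filter, the clusters left out and the tests of the difference of effects were added after seeing the data. Causes of these shifts were not tested.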
